A study of Ovis aries with 60 samples.

Results

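The 10 genes described here encode enzymes that remove superoxide and peroxides: the glutathione peroxidases GPX1 and GPX4, the peroxiredoxins PRDX1, PRDX2, PRDX4, PRDX5 and PRDX6, the superoxide dismutases SOD1 and SOD2, and catalase (CAT). They were chosen by name, and all 10 were present among the 28525 genes of the count table. The RNA, labelled as sperm RNA, was prepared from the semen of 20 F2 rams, 10 in each of 2 diet lines. Leukocyte and squamous epithelium markers were also found in it. In the methionine line the F0 grandsire received a methionine supplement from weaning to puberty, and in the control line the F0 grandsire, drawn from the same twin pairs, did not. The F1 and F2 animals of both lines ate the control diet, so no ram studied here was itself supplemented. Each line descended from 5 F0 sires with 2 F2 rams per sire, so rams of a line were not fully independent. Rams are named by their RNA sample, whose label ends in T for the methionine line and in C for the control line.

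Superoxide dismutases turn superoxide into hydrogen peroxide, which catalase, peroxiredoxins and glutathione peroxidases then reduce. Glutathione peroxidases and PRDX6 draw electrons from glutathione, and the other peroxiredoxins draw them mainly from thioredoxin. Sperm membranes are rich in polyunsaturated lipids, and mature sperm are largely silent in transcription, so their RNA is a remainder of spermatogenesis. GPX4, a selenoprotein that reduces lipid hydroperoxides, is also a structural protein of the sperm midpiece. Neutrophils and epithelial cells, which can accompany sperm in an ejaculate, carry their own sets of these enzymes.

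Library totals ranged from 805831 to 13137757 counts (median 3436936), and 5 rams lay under 2000000 counts. These are reads counted in genes. The paper gives a far narrower range of reads sequenced per library, and why the counted part differed was not tested. Values are CPM, counts relative to the library total, after scaling of the totals by the trimmed mean of M values (TMM CPM), with scaling factors between 0.36 and 2.54. Ranks and ratios of rams given below are on this scale, and some of them change with total counts. The libraries differed in composition. The sperm marker PRM1 was present in all 20 rams, at 34.8 to 1531 TMM CPM. The listed leukocyte markers S100A9 and CSF3R ranged from 32.7 to 37889 and from 6.63 to 10664 TMM CPM. The squamous keratin KRT4 ranged from 10.4 to 21138 TMM CPM. Summed over the spermatid and sperm list, the medians in the methionine and control lines were 586 and 836 TMM CPM. They were 12947 and 10860 for the leukocyte list, which S100A8 and S100A9 dominate, and 4732 and 3481 for the squamous epithelium list. The sperm list thus summed lowest at the median, and such sums give no share of cells. Rams SpermRNA382T (methionine) and SpermRNA485C (control) stood apart, with the highest spermatid and sperm marker scores and the lowest leukocyte and squamous epithelium scores, and the calls that changed without them are given with the results for the 10 genes and the pathway genes named. In such bulk samples, fewer cells of a type and less RNA per cell cannot be told apart.

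On the TMM scale, GPX4 and CAT rose with the level of sperm transcripts, 2 of 9 genes tested, where 24.8% of all genes rose, and 6 of 9 fell (SOD2, GPX1, PRDX6, PRDX2, PRDX5 and SOD1), where 32.5% of all genes fell. GPX1 rose and GPX4 fell with the level of leukocyte transcripts, 1 of 9 genes each, where 10.4% of all genes rose and 14.6% fell. SOD2, PRDX6, PRDX2, PRDX5, SOD1 and PRDX1 rose with the level of squamous epithelium transcripts, where 30.0% of all genes rose, and GPX4 and CAT fell, where 27.5% fell. Of the squamous rises, SOD2 and SOD1 were not called without rams SpermRNA382T and SpermRNA485C. None of these 6 rises passed the test with total counts. Of the falls with sperm transcripts, PRDX6, PRDX2 and SOD1 were not called without both rams. GPX1, PRDX2, PRDX5 and SOD1 were not called with total counts, where SOD1 changed sign. The fall of GPX4 with leukocyte transcripts was not called without both rams or with total counts. With all 3 marker scores in 1 fit, GPX1 kept its call on leukocyte transcripts and PRDX2 and PRDX6 theirs on squamous transcripts, and no gene was called on sperm transcripts. No difference between the diet lines passed the test for any of the 9 genes tested. The values behind these statements follow, by enzyme.

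GPX1 is the cytosolic glutathione peroxidase found in most cells. In the methionine line its level was 5.25 TMM CPM at the lowest, 45.3 at the median and 147 at the highest. In the control line the lowest, median and highest were 0.474, 45.5 and 590 TMM CPM. The medians of both lines were close, and the whole range of the methionine line lay inside that of the control line. Rams SpermRNA350C and SpermRNA485C, which held the control line's extremes with 1463 and 2 counts, were both grandsons of F0 sire 6. Their ratio was 1245-fold, with a 95% counting interval from 344 to 10289. Intervals of this kind cover counting error only, and the ratios also depend on the scaling.

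GPX4 ranged from 12.8 to 178 TMM CPM with a median of 32.4 in the methionine line, and from 16.1 to 199 with a median of 37.4 in the control line. The highest rams were SpermRNA485C at 199, SpermRNA382T at 178 and SpermRNA359T at 145 TMM CPM. Ram SpermRNA350C, the highest for GPX1, had 16.1 TMM CPM of GPX4, and only ram SpermRNA329T was lower at 12.8. The line ranges overlapped almost completely.

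The proportion of the glutathione peroxidases to each other differed widely between libraries, in a share that no scaling enters. Such a share also moves when only 1 of both genes varies, and GPX1 varied over a wider range than GPX4. GPX1 made up 0.237% of the GPX1 and GPX4 counts in ram SpermRNA485C (2 of 844 counts, exact 95% binomial interval 0.0287 to 0.853%). It made up 2.87% in ram SpermRNA382T (13 counts of GPX1 and 440 of GPX4, interval 1.54 to 4.86%) and 97.3% in ram SpermRNA350C (1463 of 1503 counts, interval 96.4 to 98.1%). The median share was 63.9% in the methionine line and 56.9% in the control line. Shares of counts depend on transcript length and are compared here only between rams.

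**Figure D1:**
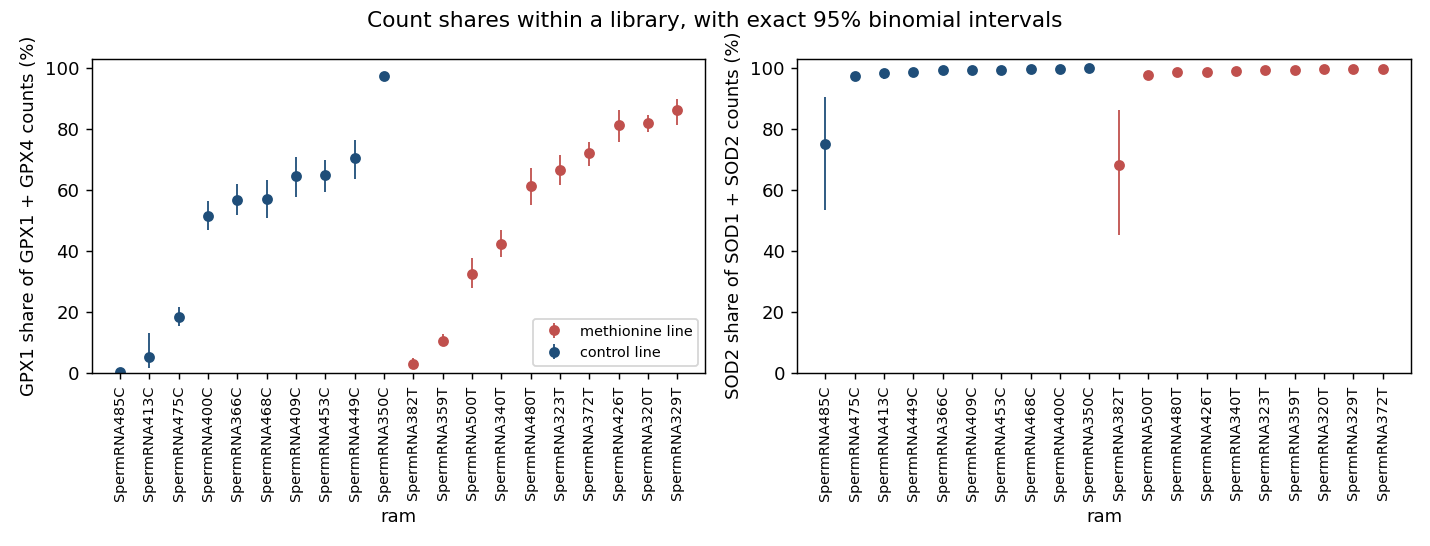
The left panel plots, for each of the 20 rams (x axis, sorted within line), the percentage of GPX1 in the summed GPX1 and GPX4 counts, and the right panel the percentage of SOD2 in the summed SOD1 and SOD2 counts. Points are single libraries, bars are exact 95% binomial intervals, and colours mark the lines; the GPX1 share runs from 0.237% to 97.3%, and the SOD2 share is low in rams SpermRNA485C (75.0%) and SpermRNA382T (68.2%) only.

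Among the peroxiredoxins, PRDX6 varied most. PRDX6 is a cytosolic enzyme with both peroxidase and phospholipase activity. Its level was 9.29 TMM CPM at the lowest, 972 at the median and 1882 at the highest in the methionine line, and 12.6, 680 and 3827 TMM CPM in the control line. By TMM CPM the lowest rams were SpermRNA382T and SpermRNA485C, with 23 and 53 counts. The next by TMM CPM was ram SpermRNA500T, at 128 TMM CPM (347 counts). Ram SpermRNA400C exceeded ram SpermRNA382T by 412-fold (95% counting interval 274 to 650). Their scaling factors of 0.41 and 1.95 enter this ratio, which is smaller with total counts. The low rams were 1 in each line, and the line ranges overlapped.

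PRDX1 and PRDX2 are cytosolic peroxiredoxins recycled by thioredoxin. PRDX1 ranged from 8.90 to 33.2 TMM CPM (median 15.8) in the methionine line and from 7.0 to 62.9 (median 17.6) in the control line. PRDX2 ranged from 1.62 to 26 TMM CPM (median 18.6) and from 2.84 to 39.2 (median 14.3), respectively. By TMM CPM, ram SpermRNA468C was the highest for both genes. Its scaling factor of 0.36 was the lowest of all rams, and with total counts it was the highest for neither gene. Rams SpermRNA382T and SpermRNA485C were the lowest for PRDX2, at 4 and 12 counts, but lay in the middle for PRDX1, at 14.5 and 15.9 TMM CPM.

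PRDX5, a peroxiredoxin of mitochondria, peroxisomes and cytosol, ranged from 33.1 to 147 TMM CPM (median 46.8) in the methionine line and from 11.3 to 223 (median 56.0) in the control line. PRDX4 resides in the endoplasmic reticulum. It had only 1 to 66 counts per ram, reached 15 counts in 9 rams, and did not pass the filter on low counts that the other 9 genes passed. Its level was 0.809 to 8.08 TMM CPM (median 3.33) in the methionine line and 1.08 to 15.6 (median 3.11) in the control line. The highest rams for PRDX4 were SpermRNA485C and SpermRNA382T, in reverse of PRDX6.

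SOD1 is the copper and zinc dismutase of the cytosol, and SOD2 is the manganese dismutase of mitochondria, a gene known to be induced by inflammatory cytokines. SOD1 ranged from 2.83 to 13.5 TMM CPM (median 7.30) in the methionine line and from 1.42 to 16.5 (median 6.06) in the control line. SOD2 ranged from 6.06 to 4782 TMM CPM (median 814) and from 4.26 to 2905 (median 680), respectively. Both genes were lowest in rams SpermRNA485C and SpermRNA382T. For SOD2 these rams had 18 and 15 counts, whereas ram SpermRNA413C, the next lowest, had 386 counts in the library with the lowest total. Ram SpermRNA372T, the highest, exceeded ram SpermRNA485C by 1122-fold (95% counting interval 710 to 1893). Their scaling factors of 0.48 and 1.65 enter this ratio too, and it is also smaller with total counts. SOD2 made up 75.0% of the SOD1 and SOD2 counts in ram SpermRNA485C (18 of 24 counts, exact 95% binomial interval 53.3 to 90.2%) and 68.2% in ram SpermRNA382T (15 of 22 counts, interval 45.1 to 86.1%), against a median of 99.2% over the 20 rams.

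CAT, the peroxisomal enzyme that breaks down hydrogen peroxide without a reducing partner, varied least. It ranged from 4.74 to 14.5 TMM CPM (median 6.73) in the methionine line and from 4.43 to 16.2 (median 8.83) in the control line. Its lowest ram was SpermRNA350C, the highest for GPX1. Over the 20 rams, the standard deviation of log2(TMM CPM + 1) was 0.56 for CAT, 0.70 for PRDX1, 0.74 for SOD1, 1.11 for GPX4, 1.91 for GPX1, 2.28 for PRDX6 and 2.60 for SOD2. The median over all 13577 genes tested was 0.85, and 6 of the 9 tested genes lay above it.

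**Figure D2:**
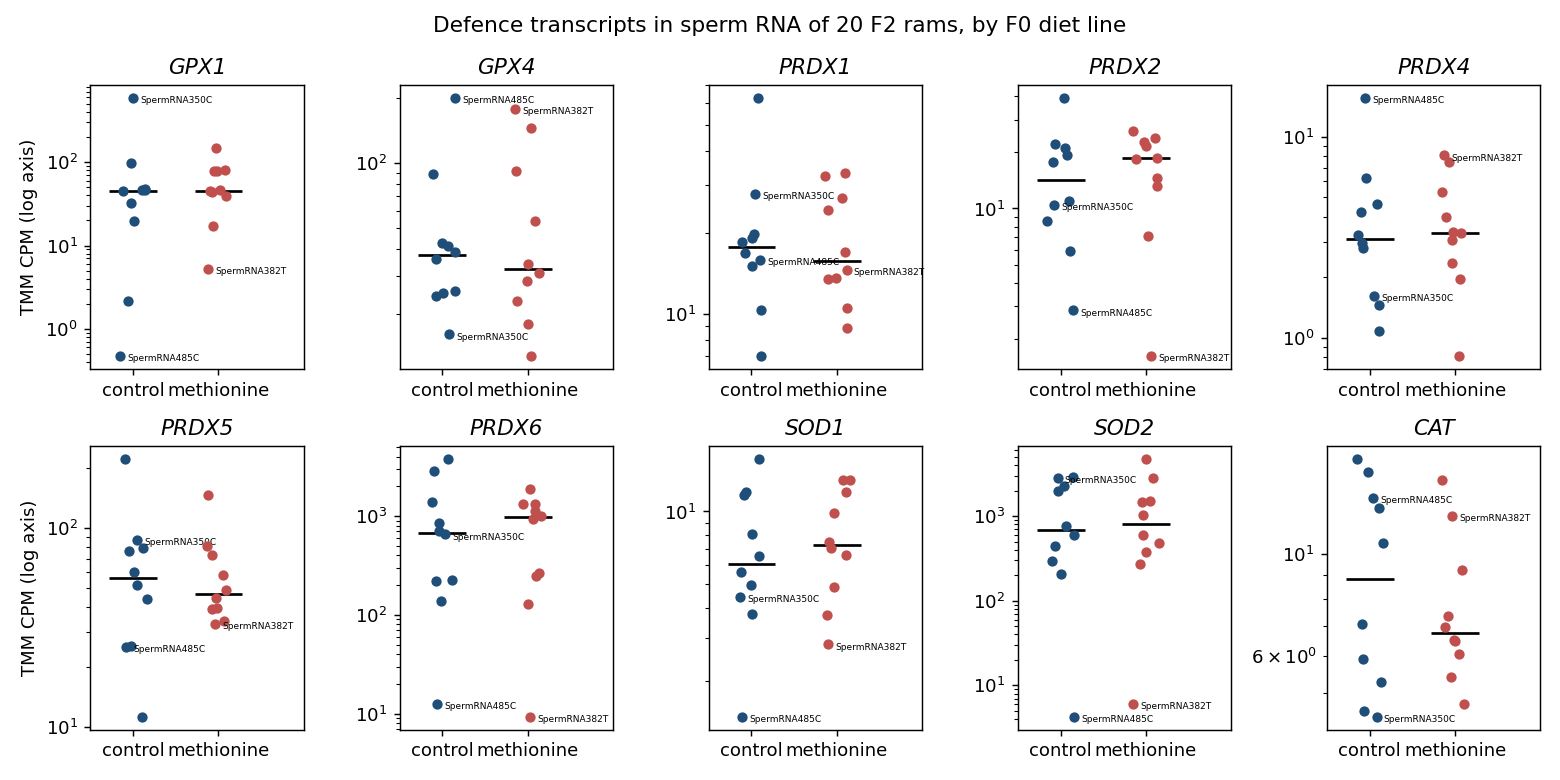
Each panel shows 1 gene, with TMM CPM on a log axis and 1 point per ram, 10 rams in each diet line; the black bars are line medians and rams SpermRNA350C, SpermRNA382T and SpermRNA485C are labelled. The lines overlap for all 10 genes, and the share of all genes with such overlap was not computed. Rams SpermRNA382T and SpermRNA485C lie far below the others for SOD2 (6.06 and 4.26 TMM CPM) and PRDX6 (9.29 and 12.6 TMM CPM).

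The first comparison asked whether these RNA libraries of the F2 rams differed by the diet of the F0 grandsire. No gene of the set was called between the lines (0 of 9; edgeR's quasi-likelihood test, Benjamini-Hochberg adjustment over all 13577 genes, adjusted p = 0.9998 for each). This equals the background, since 0% of all genes were called. At an unadjusted p under 0.05 there were 104 genes with edgeR (0.77% of those tested) and 174 with DESeq2, which also called 0 genes. Both numbers lie below the share of 0.05 that evenly spread p-values would give. None of the 10 genes had line ranges that did not overlap, and the share of all genes with overlapping ranges was not computed.

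The differences, given as methionine minus control on the log2 scale with their standard error (SE), were small against the spread between rams. That of GPX1 was -0.67 (SE 0.76, 95% interval -2.26 to 0.93). The mean level of GPX1 was 58.3 ± 40.4 TMM CPM in the methionine line and 92.6 ± 177 in the control line (SD, n = 10 each). Without ram SpermRNA350C the difference changed sign to 0.64. DESeq2 gave 0.56, after it replaced the GPX1 count of ram SpermRNA350C (1463) by 100 as an outlier.

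That of GPX4 was 0.19 (SE 0.53, 95% interval -0.93 to 1.31). For CAT it was -0.26 (SE 0.30, 95% interval -0.89 to 0.37), for PRDX6 -0.39 (SE 0.80, 95% interval -2.07 to 1.29) and for SOD2 0.12 (SE 0.84, 95% interval -1.64 to 1.88). PRDX1 (-0.13), PRDX2 (0.08), PRDX5 (-0.19) and SOD1 (0.12) had SEs from 0.36 to 0.45. The median of the 9 genes was -0.13, and that of all genes tested was -0.05. The intervals are wide, and those of PRDX6 and SOD2 include differences of more than 1 log2 unit in either direction. In simulated counts with the library sizes and the spread of each gene, 2 of 100 genes changed by 2-fold were recovered between the diet lines over the 13577 genes. Of those changed by 4-fold, 62 of 100 were recovered. Each gene was drawn on its own, without joint movement of genes, so these shares need not hold for the real libraries.

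The spread among rams was also compared within and between F0 sires, as a description. The median absolute difference between the 2 rams of a sire (10 pairs) exceeded that between rams of different sires in the same line (80 pairs) for 7 of the 10 genes. The share of all genes with this order was not computed, so the count is not shown to be particular to this set. Over all genes tested, limma's consensus correlation within sires was -0.19. For SOD2 the medians were 1.85 log2 units within sires and 1.94 between sires, and for GPX1 they were 1.47 and 1.27 log2 units. Within sire 6, rams SpermRNA350C and SpermRNA485C differed by 8.65 log2 units in GPX1, the widest such difference for that gene. SOD2 differed by up to 9.40 log2 units between rams of 1 sire.

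The second comparison asked how each gene moved with the composition of the library. For 3 cell types a marker score was taken as the mean log2(TMM CPM + 1) of the listed markers that passed the filter. These were 15 of 20 spermatid and sperm markers (led by PRM1, TSSK6 and CRISP2). For leukocytes they were 19 of 20 (led by S100A9, S100A8 and CSF3R). For squamous epithelium they were 13 of 20 (led by KRT4, CDH1 and DSP). The keratins KRT5 and KRT6A, at most 8.62 and 6.75 TMM CPM in any ram, did not pass. A slope is the log2 change of a gene per log2 unit of the score, with the diet line in the same fit. Score and gene come from the same library, so a slope describes joint movement. Of the 19 leukocyte markers, 4 were not called on the leukocyte score itself and 3 rose with the squamous score.

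The scores ranged from 3.19 to 7.28 for spermatid and sperm, from 2.77 to 9.51 for leukocyte and from 3.34 to 8.88 for squamous epithelium markers. No difference between the lines in a score passed the test (2-sided permutation tests over 10 against 10 rams, raw p from 0.63 to 0.97, adjusted over 4 differences 0.97 each). The summed level of the listed markers in the methionine and control lines was 319 to 5266 and 249 to 5302 TMM CPM for spermatid and sperm, 243 to 27412 and 150 to 57030 for leukocyte, and 176 to 17660 and 155 to 25507 for squamous epithelium. Each marker of the leukocyte and squamous lists in the table had counts in all 20 rams, rams SpermRNA382T and SpermRNA485C included. The spermatid score correlated with the squamous score (Pearson's r = -0.81, Spearman's rho = -0.78, permutation p = 1e-05 for r, the smallest the resamples can give, and 8e-05 for rho, adjusted over 9 relations 9e-05 and 7.2e-04, r = -0.68 without the 2 farthest rams), and with the leukocyte score (r = -0.68, rho = -0.61, permutation p = 0.00103 and 0.00537, adjusted 0.00309 and 0.00967, r = -0.50 without the 2 farthest rams, adjusted p = 0.0714 then). The spermatid score rose with the TMM factor (r = 0.66, rho = 0.66, permutation p = 0.00149 and 0.00219, adjusted 0.00335 and 0.00657, r = 0.65 without the 2 farthest rams). The squamous score also moved with the TMM factor (r = -0.71, rho = -0.76, permutation p = 3.7e-04 and 2.3e-04, adjusted 0.00166 and 0.00103, r = -0.66 without the 2 farthest rams) and with the log2 library total (r = 0.57, rho = 0.61, permutation p = 0.0083 and 0.00473, adjusted 0.0149 and 0.00967, r = 0.47 without the 2 farthest rams, adjusted p = 0.0714 then). The part of scaling and depth in the slopes was not tested beyond the values given with total counts.

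With the spermatid and sperm score, 2 of the 9 genes rose and 6 fell (edgeR, adjusted p at most 0.05), where 24.8% of all genes rose and 32.5% fell. GPX4 rose by a slope of 0.83 (SE 0.09, adjusted p = 1.2e-07), and CAT by 0.37 (SE 0.09, adjusted p = 0.0016). SOD2 had a slope of -1.19 (SE 0.32), GPX1 of -1.15 (SE 0.29) and PRDX6 of -1.14 (SE 0.33), with adjusted p of 0.0042, 0.0025 and 0.0067. PRDX2 (-0.59), PRDX5 (-0.52) and SOD1 (-0.41) fell less steeply, and PRDX1 had -0.26 (adjusted p = 0.060). The median slope of the set was -0.52, against -0.05 over all genes.

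GPX4 and CAT kept their call in each alternative other than the fit of all 3 scores together. With total counts in place of TMM, the slopes of GPX4 (0.91), CAT (0.64), SOD2 (-0.52) and PRDX6 (-0.61) kept their sign and their call. On that scale 58.0% of all genes rose and 9.02% fell, the median slope of all genes moved from -0.05 to 0.33, GPX1 (-0.40), PRDX2 (-0.05) and PRDX5 (-0.03) lost their call, and SOD1 (0.07) and PRDX1 (0.14) changed sign. Without rams SpermRNA382T and SpermRNA485C, GPX4 (0.75), CAT (0.43), SOD2 (-0.81), GPX1 (-0.85) and PRDX5 (-0.51) were called, and PRDX6 (-0.71), PRDX2 (-0.36) and SOD1 (-0.22) were not, where 15.2% of all genes rose and 11.9% fell. SOD1 also lost its call without ram SpermRNA468C (-0.35, adjusted p = 0.052) or without ram SpermRNA485C alone (-0.31, adjusted p = 0.060). PRDX1 was called without ram SpermRNA329T (-0.28), SpermRNA359T (-0.32) or SpermRNA480T (-0.30). Without the filter on low counts, SOD2 (-1.15, adjusted p = 0.052), PRDX6 (-0.99, adjusted p = 0.098) and SOD1 (-0.45, adjusted p = 0.064) were not called.

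With the leukocyte score, GPX1 rose and GPX4 fell, 1 of 9 genes in each direction, where 10.4% of all genes rose and 14.6% fell. The slope of GPX1 was 0.89 (SE 0.14, adjusted p = 3.8e-05). It was called in each alternative run, including without rams SpermRNA382T and SpermRNA485C (0.77), with total counts (0.83) and with all 3 scores in the same fit (1.05). The slope of GPX4 was -0.53 (SE 0.11, adjusted p = 7.9e-04), and it was not called without rams SpermRNA382T and SpermRNA485C (-0.42), with total counts (-0.49) or with the 3 scores together (-0.16). With total counts 7.14% of all genes rose and 0.169% fell, and without both rams 8.46% rose and 0.907% fell. SOD2 had a slope of 0.56 (SE 0.29, adjusted p = 0.18) and CAT of -0.22 (SE 0.08, adjusted p = 0.057). CAT was called without ram SpermRNA323T (-0.23), SpermRNA366C (-0.27) or SpermRNA400C (-0.23). The other 5 genes had slopes between 0.03 and 0.19. Where the score was the log2 of the summed marker CPM, which S100A8 and S100A9 dominate, all 9 genes were called, as were 67.5% of all genes.

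With the squamous epithelium score, 6 of 9 genes rose and 2 fell, where 30.0% of all genes rose and 27.5% fell. PRDX6 had the steepest slope of the set at 1.69 (SE 0.26, adjusted p = 1.8e-05), and SOD2 followed at 1.55 (SE 0.42, adjusted p = 0.0033). PRDX2 rose by 0.73 (SE 0.12, adjusted p = 3.3e-05), PRDX5 by 0.52 (SE 0.13), SOD1 by 0.51 (SE 0.12) and PRDX1 by 0.30 (SE 0.11), with adjusted p of 0.0021, 9.5e-04 and 0.022. GPX4 fell with a slope of -0.63 (SE 0.12, adjusted p = 1.6e-04) and CAT with -0.30 (SE 0.09, adjusted p = 0.0086). GPX1 had a slope of 0.72 (SE 0.55, adjusted p = 0.27), and the median of the set was 0.52, against 0.01 over all genes.

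Among the scores, total counts moved the median slope of all genes furthest on the spermatid and sperm score, from -0.05 to 0.33. On the squamous epithelium score, more genes of the set lost their call than on either of the other scores. With total counts only GPX4 was called (-0.93), while PRDX6 had a slope of 1.00, PRDX2 of 0.63, SOD2 of 0.35, SOD1 of 0.26 and PRDX5 of 0.10, and PRDX1 changed sign to -0.07. Of all genes 3.65% then rose and 5.44% fell, and their median was -0.17, against 0.01 with TMM. Without rams SpermRNA382T and SpermRNA485C, PRDX6 (1.25), PRDX2 (0.53), PRDX5 (0.66) and PRDX1 (0.43) rose and GPX4 (-0.55) and CAT (-0.38) fell, whereas SOD2 (0.75) and SOD1 (0.37) were not called, and 19.6% of all genes rose and 15.5% fell. PRDX1 was not called without ram SpermRNA468C (0.18) or without ram SpermRNA413C (0.26), CAT was not called without the filter on low counts (-0.17), and the slope of GPX1 ranged from 0.23 to 1.15 when 1 ram was left out, with a call in 1 of these fits, without ram SpermRNA350C (0.78, adjusted p = 0.039).

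**Figure D3:**
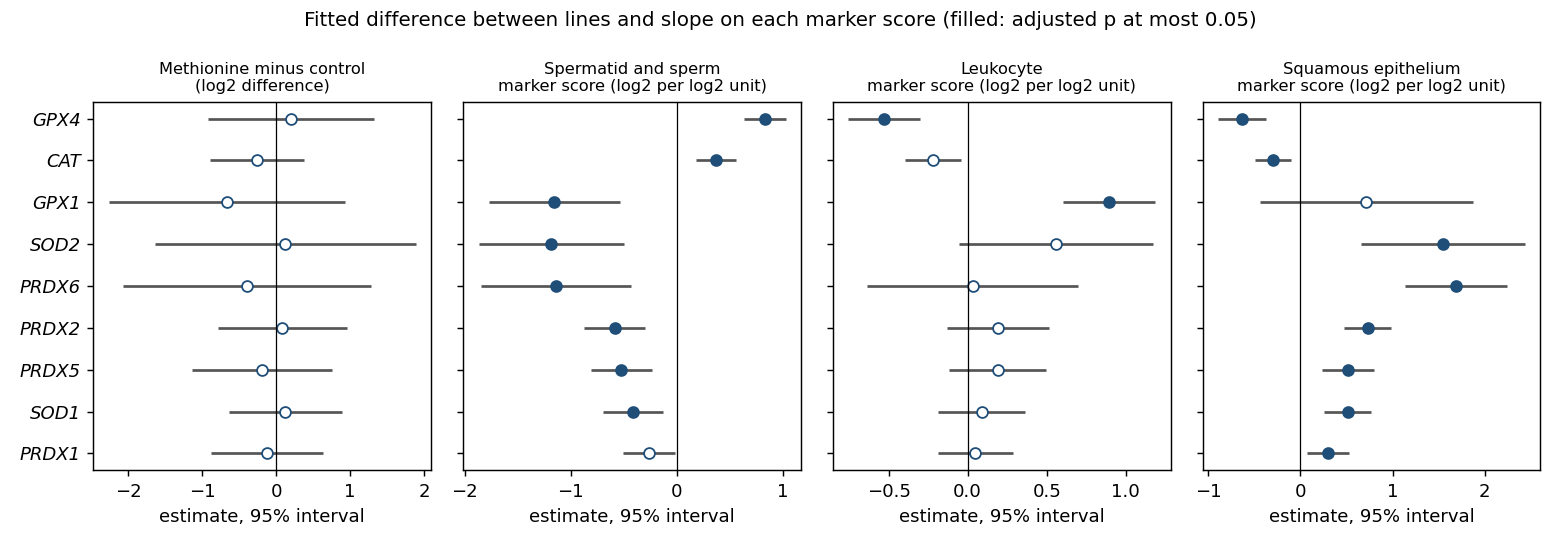
The panels show, for the 9 genes tested, the fitted log2 difference between diet lines and the slope on each of the 3 marker scores; points are estimates, bars are 95% intervals from the SE and the residual degrees of freedom, and filled points have an adjusted p of at most 0.05. No point is filled for the diet lines, GPX4 (0.83) and CAT (0.37) lie right of 0 on the spermatid and sperm score, and GPX1 (0.89) is the only filled point right of 0 on the leukocyte score.

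With all 3 scores in 1 fit, only GPX1 was called on the leukocyte score (1.05), only PRDX2 (0.73) and PRDX6 (1.69) on the squamous score, and no gene on the spermatid and sperm score. Of all genes 6.81%, 5.42% and 3.88% were called on these scores. GPX4 then had a slope of 0.70 on the spermatid and sperm score and 0.0017 on the squamous score. PRDX4 could be fitted only without the filter on low counts. Its slope was then 0.45 on the spermatid and sperm score (adjusted p = 0.015), -0.40 on the leukocyte score (adjusted p = 0.0057) and -0.19 on the squamous score (adjusted p = 0.22).

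**Figure D4:**
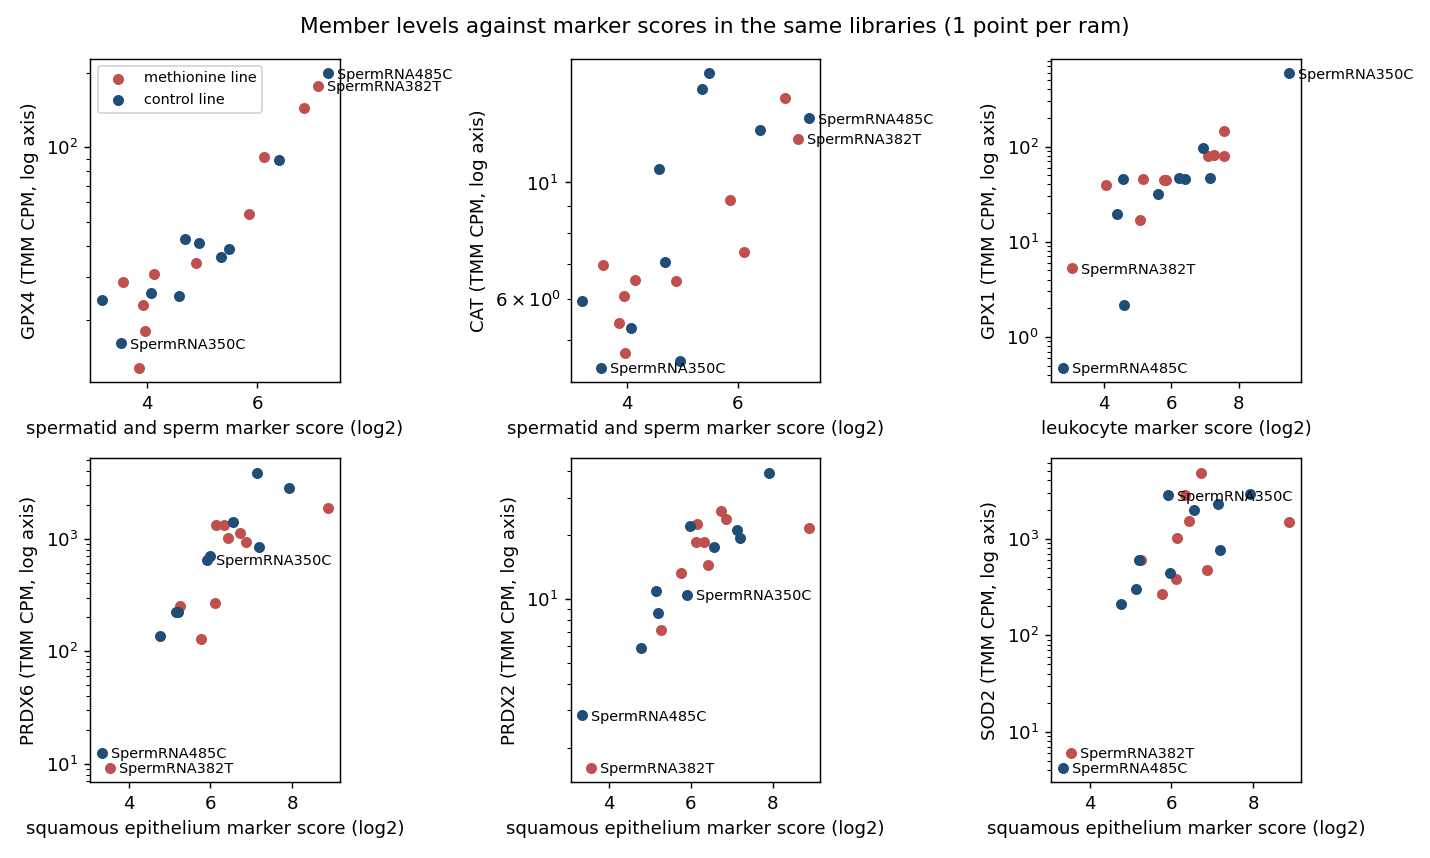
Each panel plots the level of 1 gene (TMM CPM, log axis) against a marker score of the same library (log2 scale), with 1 point per ram coloured by diet line. GPX4 climbs to 199 TMM CPM at the highest spermatid and sperm score (7.28), GPX1 to 590 TMM CPM at the highest leukocyte score (9.51), and PRDX6, PRDX2 and SOD2 drop to their lowest levels in rams SpermRNA382T and SpermRNA485C.

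Fewer genes of the marker lists of other cell types passed the filter, though single genes of them reached high levels. Of the macrophage list, 4 of 10 genes passed the filter, led by CD68 (4.04 to 2235 TMM CPM). Of the erythroid list 3 of 14 passed, led by HEMGN (4.17 to 635 TMM CPM), and the globin HBB was at 0 counts in 6 rams. Of the Sertoli and Leydig list 3 of 13 passed, none above 30.3 TMM CPM in any ram, and INSL3, a Leydig cell hormone, was at 0 counts in 6 rams. Of the epididymal and accessory gland list 3 of 20 passed, led by MUC15, and BSP1 reached 548 TMM CPM in 1 ram. The part of these cell types in the levels of the 10 genes was not tested.

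The third question was which of the genes moved together. Over 20 rams, 31 of the 45 pairs correlated on log2(TMM CPM + 1) (Pearson's r, 2-sided permutation test with 100000 resamples, adjusted p at most 0.05 over the 45 pairs), 19 positively and 12 negatively. The pairs share library, depth and scaling factor. The share of correlated pairs among all genes was not computed, so the count is not shown to be particular to this set. All 31 kept their sign without the 2 rams farthest from the median of the first gene, and 21 of them kept an adjusted p of at most 0.05. The other 10 were not called over the 18 rams left. Their r there was 0.43 for GPX1 with PRDX2, 0.32 for GPX1 with PRDX5, 0.44 for GPX1 with PRDX6 and 0.095 for GPX1 with SOD1. It was -0.37 for GPX4 with PRDX2, -0.26 for GPX4 with SOD1 and 0.37 for PRDX1 with SOD1, and 0.51, -0.40 and -0.48 for SOD2 with PRDX2, PRDX4 and CAT. By Spearman's rho over all 20 rams, GPX1 with PRDX5, PRDX1 with SOD1, PRDX2 with SOD2 and SOD2 with CAT were also called. The remaining 6 of these were not, and the part of single rams in their calls was not tested.

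The closest pair was PRDX6 with SOD2 (r = 0.93, rho = 0.84, permutation p = 1e-05 and 3e-05, adjusted 9e-05 and 6.75e-04, r = 0.79 without the 2 farthest rams). PRDX2 correlated with PRDX6 (r = 0.91, rho = 0.77, permutation p = 1e-05 and 9e-05, adjusted 9e-05 and 7.5e-04, r = 0.77 without the 2 rams), and SOD1 with PRDX6 (r = 0.85, rho = 0.82, permutation p = 1e-05 and 2e-05, adjusted 9e-05 and 6.75e-04, r = 0.76 without the 2 rams). PRDX1 was joined to PRDX5 (r = 0.81, rho = 0.73, permutation p = 3e-05 and 3.3e-04, adjusted 1.69e-04 and 0.00165, r = 0.63 without the 2 rams).

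GPX4 correlated positively with CAT (r = 0.66, rho = 0.68, permutation p = 0.00139 and 0.00108, adjusted 0.00326 and 0.00324, r = 0.60 without the 2 rams, turning to r = -0.33 with adjusted p = 0.38 once the 3 marker scores were removed) and with PRDX4 (r = 0.75, rho = 0.65, permutation p = 1.6e-04 and 0.00229, adjusted 6.55e-04 and 0.00638, r = 0.58 without the 2 rams). It correlated negatively with SOD2 (r = -0.79, rho = -0.71, permutation p = 1e-05 and 8.3e-04, adjusted 9e-05 and 0.00287, r = -0.57 without the 2 rams) and with GPX1 (r = -0.70, rho = -0.66, permutation p = 6.9e-04 and 0.00241, adjusted 0.002 and 0.00638, r = -0.72 without the 2 rams). CAT correlated negatively with GPX1 (r = -0.75, rho = -0.74, permutation p = 3e-05 and 2.8e-04, adjusted 1.69e-04 and 0.00157, r = -0.68 without the 2 rams).

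With total counts in place of TMM, 17 pairs were called, 13 of them among the 31, and the pairs GPX1 with GPX4 (r = -0.45), GPX1 with CAT (r = -0.41), PRDX1 with PRDX5 (r = 0.45) and PRDX6 with SOD1 (r = 0.35) were not. Without rams SpermRNA382T and SpermRNA485C, 21 pairs were called, 19 of them among the 31. The 12 pairs that lost their call were GPX1 with GPX4 (r = -0.47), PRDX2 (0.32), PRDX4 (-0.26), PRDX5 (0.51), PRDX6 (0.27), SOD1 (0.049) and SOD2 (0.46), GPX4 with PRDX2 (-0.38) and SOD1 (-0.27), and SOD2 with PRDX2 (0.47), PRDX4 (-0.012) and CAT (-0.52). The pairs gained were PRDX1 with PRDX6 (r = 0.59) and with SOD2 (r = 0.73). Once the 3 marker scores were fitted and removed, 8 pairs were called, all positive and 5 of them among the 31. PRDX6 with SOD2 (r = 0.84), PRDX1 with PRDX5 (r = 0.79), SOD1 with SOD2 (r = 0.69), PRDX6 with SOD1 (r = 0.63) and PRDX2 with SOD1 (r = 0.61) were these 5. The other 3 were GPX4 with PRDX5, which turned from r = -0.45 to 0.64 (adjusted p = 0.019), PRDX1 with PRDX4 (r = 0.65) and PRDX4 with PRDX5 (r = 0.62). Of the pairs described above, GPX1 with GPX4 turned to r = 0.20 (adjusted p = 0.62) and GPX1 with CAT (r = -0.48), GPX4 with SOD2 (r = -0.27), GPX4 with PRDX4 (r = 0.54) and PRDX2 with PRDX6 (r = 0.55) were not called.

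**Figure D5:**
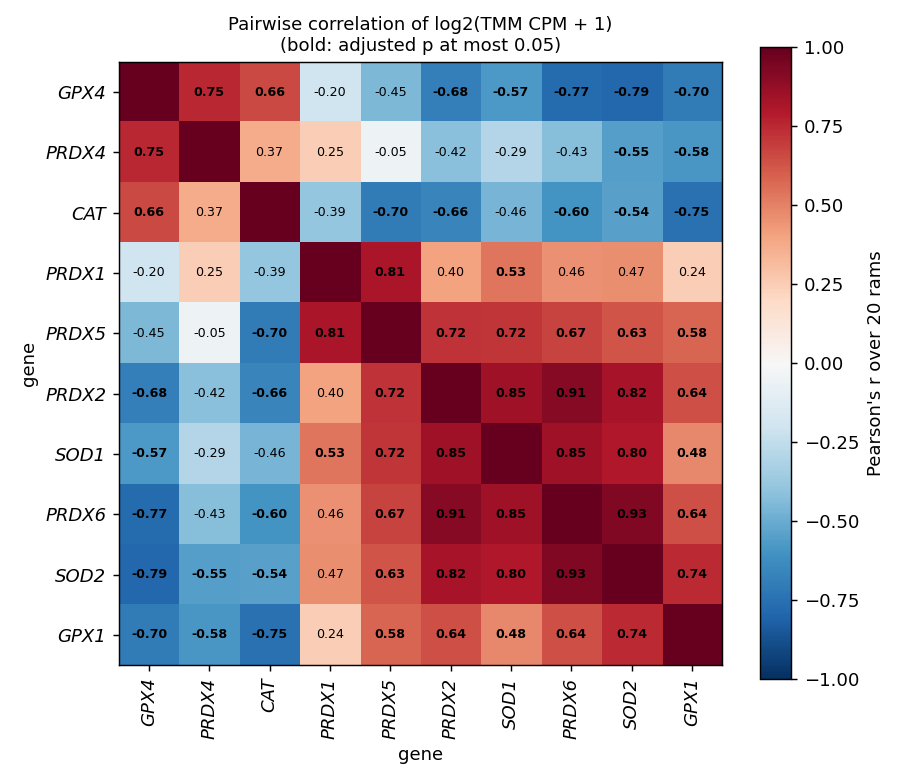
The matrix shows Pearson's r of log2(TMM CPM + 1) over the 20 rams for each pair of the 10 genes (both axes), with red for positive and blue for negative values and bold numbers where the adjusted p is at most 0.05. GPX4 is positive with CAT (r = 0.66) and PRDX4 (r = 0.75) and negative with the other 7 genes, 5 of them in bold and SOD2 lowest (r = -0.79), while PRDX4 with CAT (r = 0.37) is not bold.

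For each gene, the genes whose levels followed it most closely were ranked by Pearson's r over the 20 rams among all genes tested; these values are descriptions. GPX1 was followed by STAT6 (r = 0.96), CD81 (r = 0.96) and LOC101115252 (r = 0.95), and GPX4 by RNASEH2A (r = 0.97), PIAS4 (r = 0.97) and SLC25A39 (r = 0.96). PRDX6 was followed by YPEL3, LOC105603772 and PRDM1 (r = 0.98 each), and SOD2 by SAT1 (r = 0.98), ITM2B (r = 0.98) and RASGEF1B (r = 0.97). The nearest genes were APLP2, QSOX1 and ST14 for PRDX2 (r = 0.97 each), and GOLM1 (r = 0.96), MPZL1 (r = 0.94) and RCAN1 (r = 0.94) for SOD1. PRDX5 was nearest to EAF1 (r = 0.94) and NCSTN (r = 0.92), and PRDX1 to LOC101103639 (r = 0.89), OAZ2 (r = 0.87) and the ribosomal protein gene RPL35 (r = 0.85). CAT was followed by LOC114109062 (r = 0.87) and TAMM41 (r = 0.86), and PRDX4 to C3H9orf16 (r = 0.91), UBAP2 (r = 0.91) and ATP5ME (r = 0.87). None of the other 9 genes of the set was among these.

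The rest of the defence pathway was read from 8 lists with 97 genes, of which 92 were in the table and 75 passed the filter. No gene of these lists was called between the diet lines (0 of 75). With the spermatid and sperm score 14 of 75 rose and 38 fell, with the leukocyte score 15 rose and 9 fell, and with the squamous score 31 rose and 15 fell. Over all genes 24.8% rose and 32.5% fell with the spermatid and sperm score, 10.4% and 14.6% with the leukocyte score, and 30.0% and 27.5% with the squamous score, which are also the shares to set beside the counts by list. The median slopes of the 75 genes were -0.37, 0.11 and 0.29. These directions depended on scaling: with total counts 31 rose and 17 fell with the spermatid and sperm score, 10 rose and 0 fell with the leukocyte score, and 5 rose and 2 fell with the squamous score, where the shares over all genes were 58.0% and 9.02%, 7.14% and 0.169%, and 3.65% and 5.44%. Without rams SpermRNA382T and SpermRNA485C, of 71 genes tested, 8 rose and 19 fell, 11 rose and 0 fell, and 19 rose and 8 fell, respectively, against 15.2% and 11.9%, 8.46% and 0.907%, and 19.6% and 15.5% over all genes. The counts and slopes by list that follow are on the TMM scale. Of the 44 slopes chosen by list and score as the 2 largest called, 43 kept their sign and 24 their call with total counts, the exception in sign being SELENOT on the squamous score (-0.21), and 29 kept their call without both rams.

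Glutathione is made from cysteine, glutamate and glycine by GCLC with GCLM and then GSS, and is recycled by GSR. Of 10 genes tested in this list, 2 rose and 4 fell with the spermatid and sperm score, led by GSS (slope 0.92) and CHAC1 (-0.82), an enzyme that degrades glutathione. With the squamous score 5 rose, led by CHAC1 (1.43) and GCLC (1.25), and 3 fell. With the leukocyte score 2 rose and 2 fell, the latter being GSS (-0.49) and OPLAH (-0.46), which recycles oxoproline. Without rams SpermRNA382T and SpermRNA485C the list had 2 risen and 0 fallen with the spermatid and sperm score, 2 and 2 with the squamous score and 0 and 0 with the leukocyte score. CHAC1 on the spermatid and sperm score (-0.43), GCLC on the squamous score (0.68) and GSS (-0.48) and OPLAH (-0.33) on the leukocyte score were then not called. With total counts 5 rose and 2 fell with the spermatid and sperm score, and none was called on the other scores.

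Of the other glutathione peroxidases only GPX2 and GPX3 of 6 were tested, and both fell with the spermatid and sperm score (-1.18 and -1.21) and rose with the squamous score (1.38 and 1.43). Without both rams GPX3 was not called on the spermatid and sperm score (-0.82), and with total counts it was not called on the squamous score (0.31). Neither was called on the leukocyte score, and the difference from GPX1 was not tested.

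The thioredoxin system supplies electrons to most peroxiredoxins. Of 8 genes tested, 6 fell with the spermatid and sperm score, led by TXNIP (slope -1.79), an inhibitor of thioredoxin, and by SRXN1 (-0.96), the sulfiredoxin that repairs overoxidized peroxiredoxins, and 2 rose. With the squamous score 3 rose, led by the thioredoxin reductase TXNRD1 (1.28) and by SRXN1 (1.24), and 2 fell. With the leukocyte score 2 rose, led by TXNIP (1.18), and 1 fell, TXNRD3 (-0.34), a thioredoxin reductase of the testis. Without both rams 1 rose and 3 fell with the spermatid and sperm score, 3 rose and 1 fell with the squamous score and 1 rose with the leukocyte score, where TXNRD3 was not called (-0.25). With total counts 3 rose and 3 fell, 1 rose and 0 fell, and 1 rose and 0 fell, respectively, and TXNRD1 was not called (0.66).

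Of the 9 glutaredoxins and glutathione transferases tested, 5 rose and 3 fell with the spermatid and sperm score, 2 rose and 5 fell with the squamous score, and 1 rose and 4 fell with the leukocyte score. GSTM3 had slopes of 1.36 with the spermatid and sperm score, -1.08 with the squamous score and -0.66 with the leukocyte score. GLRX, a cytosolic glutaredoxin, had -1.01 and 0.92 on the spermatid and squamous scores, and the membrane transferase MGST3 had 0.58 on the leukocyte score. Without both rams, of 8 genes tested, 3 rose and 2 fell, 1 rose and 3 fell, and 1 rose and 0 fell, while GLRX on the squamous score (0.70) and GSTM3 on the leukocyte score (-0.44) were not called. With total counts 6 rose and 1 fell, 0 rose and 1 fell, and 1 rose and 0 fell, and the same slopes of GLRX (0.29) and GSTM3 (-0.56) were not called.

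Superoxide is made by NADPH oxidases. Of 12 genes in this list, 5 rose with the leukocyte score and none fell, led by NCF1 (slope 1.28) and CYBB (1.06), subunits of the phagocyte oxidase. Without both rams 5 of 10 tested rose with that score, and with total counts 5 of 12, with NCF1 (1.36 and 1.35) and CYBB (0.89 and 0.91) called in both. With the spermatid and sperm score 7 fell, led by NCF1 (-1.25) and RAC2 (-1.23), and 1 rose. Without both rams 5 fell and 0 rose, with NCF1 not called (-0.97), and with total counts 2 fell and 3 rose, with neither NCF1 (-0.42) nor RAC2 (-0.40) called. With the squamous score 4 rose, led by the epithelial oxidases DUOX2 (1.38) and NOX1 (1.10), and 1 fell. Without both rams 4 rose and 0 fell, and with total counts 2 rose and 0 fell, with NOX1 not called (0.56).

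Of 13 genes of NRF2 regulation and NADPH supply, 8 fell with the spermatid and sperm score, led by TALDO1 (-1.03) and MAFF (-1.02), and 1 rose. With the squamous score 9 rose, including MAFF (1.6), and 1 fell, while with the leukocyte score 3 rose, led by TKT (0.56) and MAFG (0.44), and 1 fell. Without both rams 4 fell and 1 rose, 5 rose and 1 fell, and 1 rose and 0 fell, and MAFF on the spermatid and sperm score (-0.61) and TKT on the leukocyte score (0.39) were not called. With total counts 5 fell and 3 rose, none was called on the squamous score, MAFF included (1.08), and 2 rose and 0 fell with the leukocyte score.

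Of 7 genes of superoxide, copper and haem handling, 4 fell and 2 rose with the spermatid and sperm score, led by the ferritin heavy chain FTH1 (slope -1.11) and the haem oxygenase HMOX1 (-0.81). With the squamous score 3 rose, led by FTH1 (1.46) and HMOX1 (1.22), and 2 fell, and none was called on the leukocyte score. Without both rams 1 fell and 0 rose with the spermatid and sperm score, where HMOX1 was not called (-0.46), and 1 rose and 0 fell with the squamous score, where FTH1 was not called (0.73). With total counts 2 fell and 3 rose, with HMOX1 not called (-0.21), and 1 rose and 1 fell, with FTH1 not called (0.53).

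GPX1 and GPX4 are selenoproteins, whose selenocysteine is inserted by a dedicated elongation factor, EEFSEC. EEFSEC had slopes of 1.05 on the spermatid and sperm score, -0.77 on the squamous score and -0.46 on the leukocyte score. In this list of 14 genes 1 rose and 4 fell with the spermatid and sperm score, including MSRB1 (-0.76), 3 rose and 1 fell with the squamous score, including SELENOT (1.39), and 2 rose and 1 fell with the leukocyte score, led by MSRB1 (0.68). Without both rams, of 13 genes tested, 1 rose and 3 fell, 1 rose and 1 fell, and 3 rose and 0 fell, and SELENOT on the squamous score (0.92) and EEFSEC on the leukocyte score (-0.41) were not called. With total counts 8 rose and 0 fell, none was called on the squamous score, and 1 rose and 0 fell, with MSRB1 on the spermatid and sperm score not called (-0.15).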

How the data were processed

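The raw read counts per gene of 20 F2 sperm RNA libraries were used as the authors deposited them. Per the labels and the study's methods, semen cells were washed in somatic cell lysis buffer, RNA was extracted with TRIzol and treated with DNase, single-end reads were trimmed with Trimmomatic, and STAR counted reads per gene on Oar_rambouillet_v1.0; the strand setting and the annotation release are not given in the sources used here, so reads of overlapping or near-identical genes may be missing or shared. Groups and F0 sires were taken from the sample labels. A gene was kept if over 10 of the rams had a count of 15 or higher (13577 of 28525), scaled by TMM and tested with edgeR 4.0.16 (quasi-likelihood, R 4.3.3), with Benjamini-Hochberg adjustment over all genes tested and a threshold of 0.05; limma 3.58.1 and DESeq2 1.42.0 served for alternatives. The paper states the same filter but reports more genes kept, and why the number differed was not tested. An SE is the estimate divided by the root of the quasi-likelihood F. Correlations and score differences used 100000 random permutations (numpy 2.4.6). Counting intervals are exact binomial at 95%.

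The genes described, the pathway lists and the marker lists were chosen with earlier results of these data known. The 3 genes most like each gene, the 2 largest called slopes per pathway list and score, and the leading markers were named by rule, apart from a few that are not reported here; other genes or rams singled out were chosen after their values were seen. On simulated counts over the 13577 genes, the leukocyte score was the only marker score run. With it, 40 of 100 genes with a slope of 0.5 and 91 of 100 with a slope of 1 were recovered, with 3 false calls. Between the diet lines 1 false call arose. The methylation files were not used, because no annotation of their genome build was at hand, and no sequence is shown for the same reason. The labels name no twin pairs, so no fit reported here is paired, apart from 1 alternative.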

Additional observations from a re-analysis of the deposited data

Results flagged for a closer look

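In 4 of the 20 combinations of gene and diet line, 1 ram lay far from the other 9 on the log2(TMM CPM + 1) scale. The rule was Dixon's ratio of its gap to the whole range (95% critical value 0.466 for 10 rams). Chance alone flags about 1 in 20 such groups, and the share flagged over all genes was not computed. SOD2 was low in ram SpermRNA382T of the methionine line (ratio 0.559) and in ram SpermRNA485C of the control line (ratio 0.583). PRDX6 (ratio 0.485) and PRDX2 (ratio 0.487) were low in ram SpermRNA382T. These rams had 15 and 18 counts of SOD2, and ram SpermRNA382T had 23 counts of PRDX6 and 4 of PRDX2. The same libraries had the highest spermatid and sperm scores (7.10 in ram SpermRNA382T and 7.28 in ram SpermRNA485C), the lowest leukocyte scores (3.06 and 2.77) and the lowest squamous epithelium scores (3.55 and 3.34), and their part in these low values was not tested.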

How the results depend on the processing

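The number of genes of the set called between the diet lines was 0 under every alternative run, as was the number over all genes. The labels do not name the twin pairs. A replicate block of F0 sires with consecutive numbers, a pairing inferred from the numbers, also called 0 genes; the deviations of the 5 inferred pairs from their line means correlated between -0.24 and 0.49 across genes, so the numbers were not shown to pair the sires. Under this block the uncalled differences of GPX1, PRDX5 and PRDX6 turned to 0.014, 0.0016 and 0.013. The methylation comparisons and their alternatives were not run. The settings with total counts, without rams SpermRNA382T and SpermRNA485C, without rams under 2000000 counts and with the block were chosen after seeing the data. Depth limits PRDX4, SOD1 and CAT most.

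Of the 9 genes, 8 were called on the spermatid and sperm score, 2 on the leukocyte score and 8 on the squamous score. Of all genes 57.3%, 25.0% and 57.5% were called. The numbers were 0, 1 and 2 with all 3 scores in 1 fit (3.88%, 6.81% and 5.42% of all genes), and 4, 1 and 1 with total counts (67.0%, 7.31% and 9.1%). Without rams SpermRNA382T and SpermRNA485C, 5 were called on the spermatid and sperm score (27.1%) and 1 on the leukocyte score (9.36%), without rams under 2000000 counts 4 on the squamous score (30.1%), and with the summed marker CPM 9 on the leukocyte score (67.5%). Leaving out each ram in turn gave 7 to 9, 2 to 3 and 7 to 9. Against 31 correlated pairs, 8 were called among the residuals after the marker scores, 5 of them among the 31, and 17 with total counts, 13 of them among the 31. The cause of these changes was not tested.

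Some differences between lines changed sign, none of them called. GPX1 turned to 0.16 with the scores as covariates, 0.56 with DESeq2 and 0.67 with limma-voom and F0 sire as a random effect (within-sire correlation -0.19). GPX4 turned to -0.41 without rams under 2000000 counts. PRDX1 turned to 0.053 and PRDX5 to 0.030 with counts summed per F0 sire, PRDX5 also to 0.064 with limma-voom and 0.00018 with total counts, and PRDX2 to -0.0051 with the scores as covariates. SOD2 turned to -0.0039 with DESeq2 size factors, -0.0039 with DESeq2, -0.047 with the scores as covariates and -0.041 with limma-voom.

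Among slopes on the spermatid and sperm score, the 3 scores together turned GPX1 to 0.53, PRDX2 to 0.057, PRDX6 to 0.063 and SOD2 to 0.43, and total counts turned PRDX1 to 0.14 and SOD1 to 0.066. On the leukocyte score, uncalled slopes turned to -0.076 (PRDX1), -0.049 (PRDX5) and -0.030 (SOD1) with the 3 scores together, and to -0.065 (PRDX1) and -0.090 (PRDX6) with total counts. They turned to -0.013 (PRDX1), -0.053 (PRDX2), -0.25 (PRDX6) and -0.11 (SOD1) without rams SpermRNA382T and SpermRNA485C, and to -0.020 (PRDX2), -0.14 (PRDX6) and -0.039 (SOD1) without rams under 2000000 counts. On the squamous score, GPX1 turned to -0.21 without rams SpermRNA382T and SpermRNA485C, GPX4 to 0.0017 with the 3 scores together and PRDX1 to -0.065 with total counts. After the marker scores were removed, r turned to 0.20 for GPX1 with GPX4, -0.33 for GPX4 with CAT, 0.24 for GPX1 with PRDX4, 0.38 for SOD2 with CAT, 0.15 for PRDX6 with CAT and 0.087 for GPX4 with PRDX2, and with total counts it turned to 0.0080 for GPX4 with SOD1.

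Leaving out 1 ram changed the sign of uncalled differences between lines within the ranges -0.97 to 0.64 (GPX1), -0.15 to 0.72 (GPX4), -0.24 to 0.23 (PRDX1), -0.038 to 0.35 (PRDX2), -0.44 to 0.23 (PRDX5), -0.60 to 0.085 (PRDX6), -0.0018 to 0.33 (SOD1) and -0.36 to 0.36 (SOD2), and of the leukocyte slopes within -0.11 to 0.27 (PRDX6) and -0.016 to 0.19 (SOD1).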
